A study of Mus musculus with 22 samples.

Results

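The genes described are 10 astrocyte genes for glutamate uptake and cell identity, of 24421 genes in the count tables of mouse brain hemispheres. They are Slc1a2, Slc1a3, Glul, Aqp4, Gja1, Gjb6, Gfap, Aldh1l1, Aldoc and S100b, and each was found under its symbol in the tables of both sexes. Slc1a2 was chosen by its higher level in dominant females of these same data, and the other 9 were listed as astrocyte genes to be read beside it. All 10 passed the expression filter in both sexes. The comparisons ask whether Slc1a2 differed alone or together with the other astrocyte genes, between social ranks and between cages.

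Astrocytes clear glutamate from the synaptic cleft. The transporters GLT-1, encoded by Slc1a2, and GLAST, encoded by Slc1a3, carry it into the cell, where glutamine synthetase, encoded by Glul, converts it to glutamine that neurons take up again. Astrocytes are joined to each other by gap junctions of connexin 43 and connexin 30, the products of Gja1 and Gjb6, and their end feet on blood vessels carry the water channel encoded by Aqp4. Gfap encodes an intermediate filament, Aldh1l1 a folate enzyme, Aldoc the brain form of aldolase and S100b a calcium-binding protein, all widely used to mark these cells.

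Total RNA of the right hemisphere was sequenced from 22 C57B6/J OlaHsd mice, 1 library per mouse. Rank was set by tube tests when the mice were 10 to 12 weeks old, animals meeting head-on in a narrow tube until one is pushed out. Each cage or group gave 1 dominant and 1 submissive animal, in 7 pairs of males and 4 of females. Pairs are numbered here by the replicate number of the labels. Library names of female pairs 3 and 4 give groups in place of cage numbers, and these pairs are called cages 3 and 4 here. Reads counted on genes numbered 12403943 to 15099149 in dominant males (median 14166495), 12851198 to 15805170 in submissive males (median 14379997), 15375100 to 16488762 in dominant females (median 15663821.5) and 14967458 to 16462771 in submissive females (median 15875616.5). CPM stands for counts brought to equal library totals, with TMM factors within each sex. Library names begin with um_endres in males and with jgu_gerber in females. Sex cannot be told apart from whatever these names mark, so no test between the sexes is given.

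Compared per kilobase of exon, Glul was the most abundant of the 10 genes, with a mean of 554 CPM per kb in males and 627 in females. Aldoc followed with 400.0 CPM per kb in males and 410.3 in females. The glutamate transporters came next, Slc1a2 with 260.0 CPM per kb in males and 204 in females and Slc1a3 with 204 and 194. In submissive females the transporters differed by less than their spread, with 196 ± 5.06 CPM per kb for Slc1a2 (SD, n = 4) and 192 ± 12.2 for Slc1a3 (SD, n = 4). S100b had 144 CPM per kb in males and 154 in females, Gja1 97.2 and 91.5, Aqp4 65.3 and 66.1 and Gfap 43.3 and 40.3. Gjb6 and Aldh1l1 had the lowest levels and differed by less than their spread in submissive males, at 30.8 ± 2.63 CPM per kb (SD, n = 7) and 28.8 ± 2.06 CPM per kb (SD, n = 7). Gjb6 was higher than Aldh1l1 in submissive females, at 32.4 ± 3.29 against 24.3 ± 2.83 CPM per kb (SD, n = 4 each). In dominant females they had 30.6 ± 4.36 and 23.9 ± 1.06 CPM per kb (SD, n = 4 each). Slc1a2 has the longest exon sequence of the 10, with 12068 bases, against 1661 for S100b and 5950 for Aqp4. It took 39.4% ± 3.04 (SD, n = 7) of the summed CPM of the 10 genes in dominant males, 39.4% ± 3.55 (SD, n = 7) in submissive males, 34.0% ± 1.16 (SD, n = 4) in dominant females and 32.1% ± 1.30 (SD, n = 4) in submissive females. In the mm10 build Slc1a2 spans chromosome 2 from 102658683 to 102790784, Slc1a3 chromosome 15 from 8634124 to 8710807, Glul chromosome 1 from 153899929 to 153909723 and Aldh1l1 chromosome 6 from 90550848 to 90599171. Gfap and Aldoc lie on chromosome 11, from 102887336 to 102897200 and from 78323073 to 78327778, and Gja1 and S100b on chromosome 10, from 56377300 to 56390419 and from 76253836 to 76261319. Gjb6 lies on chromosome 14 from 57123301 to 57133611, and Aqp4 on chromosome 18 from 15389394 to 15410982.

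One library stood apart from the rest. Dominant male 1, of cage 1, had 0 counts of the Purkinje cell gene Pcp2, which allows up to 0.212 CPM by counting error alone. The summed level of 5 cerebellar granule cell markers was 45.4 CPM in this library and 270.3 to 564 CPM in the other 13 males, and that of 5 Purkinje cell markers was 1488 CPM against 2268 to 3010.4 CPM. Several astrocyte genes were also low there. Slc1a3 had 712 CPM in this mouse and 829 to 923 CPM in the other dominant males, Aqp4 had 299.8 against 369 to 418 CPM, and S100b had 172 against 229 to 264 CPM. Gja1, Gjb6 and Aldoc were also below all other dominant males. Slc1a2, at 3269.9 CPM, was inside the range of the other dominant males, as were Glul (1664 against 1433 to 1675 CPM), Gfap and Aldh1l1. A list of 35 further astrocyte genes summed to 9284 CPM, inside the 9020 to 10035.5 CPM of the other 13 males. A list of 5 Bergmann glia genes summed to 289 CPM, below the 378 to 496 CPM of the others. Most of this sum was Gria4 (mean of 333 CPM in males), and most of the Purkinje cell sum was Itpr1 (mean of 1934 CPM). These sums therefore mainly follow 1 gene each. Bulk tissue cannot tell fewer astrocytes from less RNA per astrocyte. The part of the cerebellar markers in the astrocyte values was not tested, and results without this library are given below.

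The rank comparison in males is the rank test whose mice had no part in the choice of Slc1a2. None of the 10 genes was called different between dominant and submissive males. Slc1a2 ranged from 2699 CPM over a median of 3076 to 3484 CPM in the 7 dominant males and from 2648 over 3107 to 3712 CPM in the 7 submissive males. The ranks overlapped almost completely, and the dominant mouse had the higher value in 4 of 7 cages. Its log2 fold change, dominant relative to submissive, was -0.023 (standard error 0.069, 95% interval -0.17 to 0.12, adjusted p = 1.00 by the quasi-likelihood test of edgeR after Benjamini-Hochberg adjustment). With cage mates paired by a replicate block it was -0.021. Without dominant male 1 it was -0.035, and it changed sign to 0.020 when each sample's trend of log2 CPM on exon length was removed.

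The other glutamate genes gave the same picture in males. The dominant males had 842 ± 65.6 CPM of Slc1a3 and 1559.9 ± 92.6 CPM of Glul (SD, n = 7), and the submissive males 872 ± 40.2 and 1548 ± 51.2 CPM (SD, n = 7). Across the 10 genes the log2 fold changes ran from -0.076 for Aqp4 to 0.011 for Glul, 2 above 0 and 8 below, and their median of -0.020 compares with -0.0015 over all genes tested. The 95% intervals of all 10 lay within -0.22 and 0.12. Of the 10 genes, 0 were called by edgeR, 0 had an unadjusted p under 0.05 and DESeq2 called 0, while the share called among all 14737 genes tested was 0% (194 genes at an unadjusted p under 0.05). The count of 0 also held without dominant male 1, whose removal brought the values of several genes closer to 0. Aqp4 then had -0.027, Slc1a3 -0.013 in place of -0.050 and S100b -0.00015 in place of -0.062. Gjb6 and Gfap then had -0.00077 and -0.0021, and the sign changed for Glul (-0.0051), Gja1 (0.010) and Aldoc (0.012). Aldh1l1 was higher in the dominant mouse in 6 of 7 cages, by at most 0.067 on the log2 scale, and the difference was -0.074 in cage 5.

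In females, Slc1a2 was higher in dominant mice, which is the pattern it was chosen for, so its values are a description without a test. The dominant females of replicates 1 to 4 had 2616, 2489, 2520.0 and 2583 CPM. The submissive females had 2379, 2454, 2316 and 2335 CPM in the same order. Every dominant female was above every submissive one, and the difference between cage mates lay between 0.021 (cage 2) and 0.15 on the log2 scale. Such a separation of the ranks was found for 5.6% of all genes tested in females. The log2 fold change of Slc1a2 was 0.11 (standard error 0.029), also with the replicate block (0.11), and it was 0.079 within cages 1 and 2 and 0.13 within cages 3 and 4.

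None of the other 9 genes separated the ranks in females. Their log2 fold changes lay between -0.076 for Gjb6 and 0.055 for S100b, 3 above 0 and 6 below, and none was higher in the dominant mouse in more than 2 of 4 cages. With 1 mouse left out, both signs were found for Slc1a3 (-0.0060 to 0.060), Aqp4 (-0.037 to 0.060) and S100b (-0.028 to 0.13). The same held for Gfap (-0.064 to 0.0054) and Aldh1l1 (-0.095 to 0.026). Gjb6 ran from -0.17 to -0.0061, and Glul, Gja1 and Aldoc also stayed below 0. The dominant females had 821 ± 44.5 CPM of Slc1a3, the other astrocyte transporter gene, and 1744 ± 77.5 CPM of Glul (SD, n = 4). Their submissive cage mates had 807 ± 51.3 and 1774 ± 42.2 CPM (SD, n = 4). Summed over the 9 genes, the CPM of the dominant females was 4961 ± 168 and that of the submissive females 5021 ± 185 (SD, n = 4 each). On the log2 scale Slc1a2 exceeded the mean of the other 9 by 2.98 ± 0.075 among dominant females and by 2.86 ± 0.11 among submissive females (SD, n = 4 each), with ranges that overlapped. Across all genes edgeR called 14 of 14865 (0.0942%) between female ranks and 0 of the 10, with 1 (Slc1a2) at an unadjusted p under 0.05, and DESeq2 called 1 of the 10 (Slc1a2). Nothing is read from these counts, since this contrast chose the gene.

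The female difference of Slc1a2 was smaller once gene length was taken into account. In each library log2 CPM had a smooth trend on exon length, and at the length of Slc1a2 this trend was 0.0029 to 0.059 above the mean of the females in dominant mice and between -0.049 and -0.026 in submissive mice. With the trend removed, the log2 fold change of Slc1a2 was 0.040, the dominant mouse was higher in 3 of 4 cages and the ranks overlapped.

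**Figure D1:**
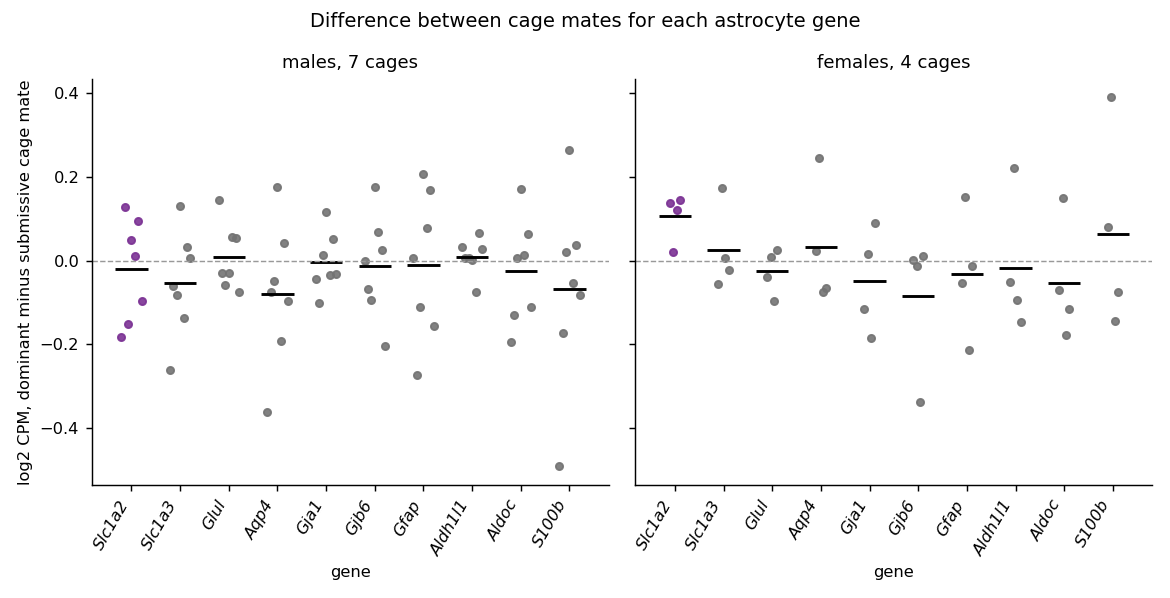
Difference in log2 CPM between the dominant and the submissive mouse of each cage for the 10 astrocyte genes, in 7 male cages (left) and 4 female cages (right). Each point is a cage, the black bar is the mean over cages and the dashed line is 0. The 4 female points of Slc1a2 (purple) lie above 0, between 0.021 and 0.15, while its 7 male points lie on both sides of 0.

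The comparison of cages asks whether the 2 mice of a cage share a level, with rank kept in the model. Numbers in the library names run in cage order in both sexes, with cage mates next to each other. By the methods, cage mates were also killed at the same time. Shared housing therefore cannot be told apart from shared handling or library order, and a cage call says only that pairs differed. In males, 2 of the 10 genes differed between cages, Slc1a2 and Aldh1l1, and they did so in opposite directions. Slc1a2 was high in cages 1 to 4 and low in cages 5 to 7. The dominant and the submissive mouse had 3269.9 and 3712 CPM in cage 1, 3396 and 3107 in cage 2, 3039 and 3372 in cage 3 and 3484 and 3366 in cage 4. In the remaining 3 they had 3076 and 3050.4 CPM (cage 5), 2827 and 2648 CPM (cage 6) and 2699 and 2885 CPM (cage 7). The ranges overlapped only because the dominant mouse of cage 3 was below both mice of cage 5. The F test of edgeR over the 7 cages gave an F of 7.78 for Slc1a2 (adjusted p = 0.0274, Benjamini-Hochberg over all genes tested).

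Aldh1l1 was low in cages 1 to 4 and high in cages 5 to 7. It lay between 80.4 and 91.9 CPM in the 8 males of cages 1 to 4 and between 92.0 and 98.6 CPM in the 6 males of cages 5 to 7, without overlap, as did 8.73% of all genes tested. Cage mates were close, and the 2 mice of cage 4 both had 80.4 CPM. Its F was 6.83 (adjusted p = 0.0370 from the same edgeR test). Aldoc, the glycolytic enzyme gene, ran the same way as Aldh1l1 with 956 to 1228 CPM in cages 1 to 4 and 1153 to 1278.6 CPM in cages 5 to 7, and its adjusted p of 0.0577 in edgeR did not pass the threshold. The means of Slc1a3, Glul, Aqp4, Gja1, Gjb6, Gfap and S100b were also higher in cages 5 to 7, by 0.024 (Gja1) to 0.14 (S100b) on the log2 scale, with overlapping ranges and adjusted p between 0.206 and 0.781 in edgeR's F test. Without dominant male 1, which belongs to the earlier cages, the difference changed sign for Aqp4 (-0.0069 in place of 0.043) and became smaller for S100b (0.087), Slc1a3 (0.062), Gja1 (0.013) and Gjb6 (0.011), while that of Aldh1l1 was 0.16 and that of Slc1a2 -0.23. The summed CPM of the 9 genes other than Slc1a2 was 4402 to 4978 in cages 1 to 4 and 4805 to 5152 in cages 5 to 7. The division between cages 4 and 5 was known from earlier results of these data and is named by no label. It also separates lower from higher numbers in the library names.

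The 2 calls are 2 of 10 genes, where edgeR called 5.89% of all 14737 genes for cage in males (868 genes). DESeq2 also called 2 of the 10, Slc1a2 and Aldoc, and 10.1% of the genes it adjusted over. The call of Slc1a2 was lost without cage 6 (adjusted p = 0.0901 in edgeR) and without cage 7 (0.0812), and that of Aldh1l1 without any of cages 2 to 7 (0.0647 to 0.117). Without cage 1, which holds dominant male 1, 3 of the 10 were called, Aldoc being added, and so were 12.5% of all genes. Within cages 1 to 4 alone and within cages 5 to 7 alone, 0 of the 10 were called in edgeR, with 2 and 0 genes called in all.

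**Figure D2:**
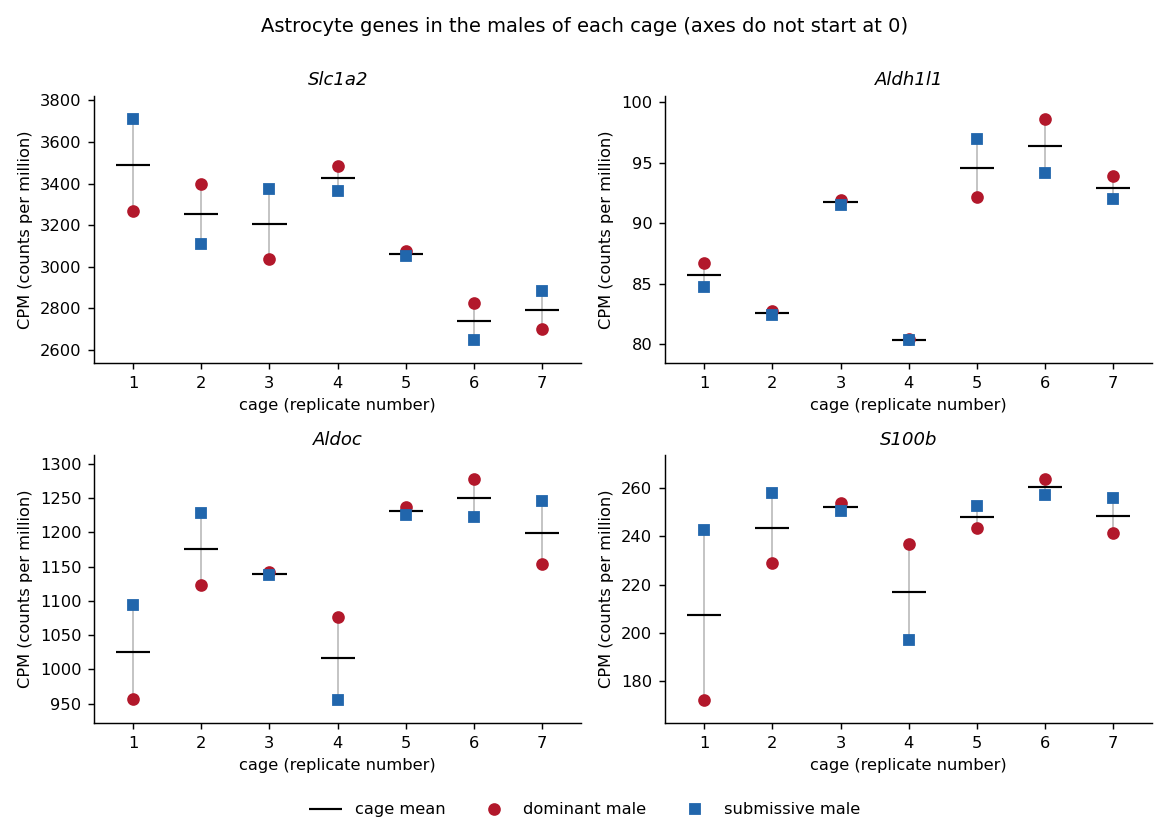
CPM of Slc1a2, Aldh1l1, Aldoc and S100b in the dominant (circles) and submissive (squares) male of each of 7 cages, with the cage mean as a bar and a line joining cage mates. Slc1a2 lies between 3039 and 3712 CPM in cages 1 to 4 and between 2648 and 3076 CPM in cages 5 to 7, and Aldh1l1 between 80.4 and 91.9 CPM and between 92.0 and 98.6 CPM. The axes do not start at 0.

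The cage difference of Slc1a2 ran with exon length. At the length of Slc1a2 the trend of log2 CPM on exon length, relative to the mean of the males, was 0.037 to 0.15 in the 8 males of cages 1 to 4 and -0.23 to -0.062 in the 6 males of cages 5 to 7. The means of Slc1a2 in the later cages were -0.22 relative to the earlier ones on the log2 scale, and -0.00072 with the trend removed. Its cage call was then lost (adjusted p = 0.436 in edgeR). Aldh1l1, with 3084 exon bases, kept its call with the trend removed (adjusted p = 0.0377 in edgeR) and a difference of 0.16 between the later and the earlier cages, against 0.15 before. For Slc1a3, Aqp4 and Gfap the same difference became larger, at 0.14, 0.13 and 0.14 in place of 0.094, 0.043 and 0.099, and it became smaller for S100b (0.11 in place of 0.14) and Gjb6 (0.0095 in place of 0.025), none of them called for cage. What set the trend in each library was not tested.

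Over the 7 male cages, Slc1a2 was set against each of the other 9 genes in 2 ways, with 9 relations in each family. The first used the difference between cage mates. Pearson's r ran from -0.15 with Glul to 0.57 with Aqp4, 7 of 9 were above 0, and their median of 0.39 compares with 0.018 for Slc1a2 against all genes tested. None passed the exact permutation test (two-sided, raw p of 0.185 to 0.909, adjusted p of 0.708 to 0.909). Spearman's rho ran from -0.036 to 0.61 (exact permutation test, raw p of 0.167 to 0.963, adjusted p of 0.896 to 0.963). Without the 2 cages farthest from the median of Slc1a2, r was between 0.0034 and 0.46. Without cage 1, which holds dominant male 1, r fell to 0.27 with Aqp4, 0.24 with Slc1a3 and 0.13 with Aldoc. It changed sign for Glul (0.56), Gja1 (-0.046), Aldh1l1 (0.094) and S100b (-0.014), and rose for Gjb6 (0.51) and Gfap (0.23).

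The second family used cage means, and there the 9 genes ran against Slc1a2. All 9 values of r were below 0, from -0.35 for Glul to -0.85 for Aldoc, with a median of -0.53 against -0.025 for all genes tested, whose quartiles were -0.53 and 0.54. The 4 lowest belonged to Aldoc, S100b, Aldh1l1 and Slc1a3 (exact permutation test, two-sided, raw p of 0.0202 to 0.0393, adjusted p = 0.0884 for each), so 0 of 9 passed by Pearson's r. By Spearman's rho 3 of 9 passed, all at -0.89 or lower, which 2.99% of all genes tested had with Slc1a2. The rho with Slc1a3 was -0.96 (exact permutation test, raw p = 0.00278, adjusted p = 0.025), and that with Aldoc and with S100b was -0.89 (exact permutation test, raw p = 0.0123, adjusted p = 0.0369 for both). For the other 6 genes rho lay between -0.86 and -0.32 (exact permutation test, raw p of 0.0238 to 0.498, adjusted p of 0.0536 to 0.498). Without the 2 cages farthest from the median r was -0.89 for Slc1a3, -0.96 for Aldoc and -0.92 for S100b, and between -0.75 and -0.16 for the other 6. With the length trend removed, r was -0.20 for Slc1a3, -0.31 for Aldoc, -0.59 for S100b and -0.018 for Aldh1l1, and it changed sign to 0.64 for Glul. Without cage 1, which holds dominant male 1, 0 of 9 passed by rho, which was -0.94 for Slc1a3 and Aldh1l1, -0.89 for Aldoc and -0.83 for S100b (exact permutation test, adjusted p of 0.075 to 0.131). With the means of cages 1 to 4 and of cages 5 to 7 removed and cages permuted only within these sets, 0 of 9 passed by r in either family. Over cage means r was then -0.54 for Slc1a3, -0.58 for Aldoc, -0.73 for S100b and -0.35 for Aldh1l1, and it changed sign for Glul (0.89) and Gfap (0.016), with adjusted p of 0.125 to 0.972 in the exact permutation test. Only 144 arrangements exist within these sets, too few for 1 gene alone to pass among 9, so the count of 0 decides nothing. The relation over cages was not told apart from the division between cages 4 and 5.

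The genes that followed Slc1a2 most closely were not astrocyte genes of the list. Over all 22 mice, with the mean of each of the 4 groups removed, the 5 genes with the highest Pearson's r among 10326 genes were Itgav (0.94), an integrin subunit, Ptprd (0.93), a receptor phosphatase, Usp34 (0.91), a deubiquitinase, Dnajc13 (0.91), an endosomal protein gene, and Dock10 (0.91), an exchange factor. These values are a description, since cage mates share a cage and the mice share a scaling. The difference between male cages 1 to 4 and cages 5 to 7 was not removed and is part of r. In males alone the 5 genes had an r of 0.917 (Usp34) to 0.949 (Itgav), and in females alone r was 0.96 for Usp34, 0.86 for Itgav, 0.72 for Dock10, 0.56 for Ptprd and 0.40 for Dnajc13. The 5 genes have 7055 to 12200 exon bases, and the 100 genes most like Slc1a2 had a median of 8074.5 exon bases against 3335.5 for all 10326. All 9 other astrocyte genes had an r below 0 in the same order, from -0.12 for Gjb6 (place 5692) to -0.61 for Aldoc (place 9415) and -0.63 for Aldh1l1 (place 9584), while the median over all genes was -0.046. In females alone Gja1 and Gjb6 had an r of 0.14 each and the other 7 were below 0.

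The library names of female replicates 3 and 4 give groups in place of cage numbers. By the methods, females of intermediate rank were put together anew and tested again, and which sequenced mice these were is not given. In females, 0 of the 10 genes were called for cage, where edgeR called 11 of 14865 genes (0.074%). DESeq2 also called 0 of the 10. An unadjusted p under 0.05 was found for 4 of them, Slc1a3, Aqp4, Gjb6 and Aldh1l1, and for 5.11% of all genes. Gjb6 had the highest F of the 10 (9.08, adjusted p = 0.283 in edgeR). Its mice had 66.8 and 66.7 CPM in cage 1, 80.2 and 80.9 CPM in cage 2, 57.1 and 72.2 CPM in cage 3 and 65.1 and 64.7 CPM in cage 4, the dominant mouse first. Cage mates were thus nearly equal except in cage 3. Slc1a2 had an F of 0.347 (adjusted p = 0.999 in edgeR). A difference between the sexes in the cage effect was not tested.

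The astrocyte genes beyond the 10 were read from a list of 35, all tested in both sexes. In males 2 of the 35 were called for cage by edgeR (5.71%, no more than the 5.89% of all genes), the sodium pump subunit gene Atp1b2 and the potassium channel gene Kcnj10, whose product takes up potassium into astrocytes. Both ran in the direction of Slc1a2 and against most of their list, in which 23 of the 35 genes had higher means in cages 5 to 7 and 12 lower (median log2 difference 0.037). Atp1b2 had 95.3 to 126 CPM in cages 1 to 4 and 70.3 to 88.3 CPM in cages 5 to 7 (adjusted p = 0.00260), and Kcnj10 had 89.5 to 132 and 69.8 to 98.2 CPM (adjusted p = 0.0377, both from edgeR's F test). Their exon lengths are 2959 and 5407 bases. Sparcl1 and Apoe, which are among the most abundant genes of the list by CPM, were not called (adjusted p of 0.128 and 0.0515 in edgeR).

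Of 20 other genes of the glutamate and glutamine cycle that were tested, 2 were called for cage in males (5.89% of all genes were), both higher in the later cages. Slc17a7, which encodes a vesicular glutamate transporter of neurons, had 389 to 483 CPM in cages 1 to 4 and 464 to 518 CPM in cages 5 to 7 (adjusted p = 0.0103 in edgeR). Got2, the mitochondrial aspartate aminotransferase gene, had 135 to 143 CPM and 153 to 165 CPM (adjusted p = 0.0354 in edgeR). The glutamate receptor gene Grm5 was not called by edgeR (adjusted p = 0.192), and Slc1a7, the retinal transporter gene, was at 0.040 CPM in males and did not pass the filter. Of 24 reactive astrocyte genes 20 were tested and 0 were called for cage in males, with Vim, Cp and C4b as the most abundant by CPM (adjusted p of 0.104 to 0.376 in edgeR). Lcn2, Timp1, Cxcl10 and Ptx3 did not pass the filter in either sex. Of 5 Bergmann glia genes, led by Gria4, Hopx and A2m, 0 were called (adjusted p of 0.109 to 0.518 for these 3).

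Some markers of other cell types were called between the male cages, at about the share of all genes. Both Gpr17 and Cspg4, 2 of 4 oligodendrocyte precursor markers, were lower in cages 5 to 7 (adjusted p of 0.00284 and 0.0145 in edgeR), and the summed CPM of the 4 was 179 to 195 in cages 1 to 4 and 159.8 to 174 in cages 5 to 7, with Pdgfra as the most abundant. The endothelial tight junction gene Cldn5 had 22.7 to 32.3 CPM in the earlier and 35.7 to 41.3 CPM in the later cages (adjusted p = 0.00265 in edgeR), as 1 of 7 endothelial markers. Their summed CPM was 238 to 262 in the earlier and 256 to 282 in the later cages, with Slco1a4 as the most abundant. The neuronal splicing factor gene Rbfox3, 1 of 13 neuron markers, was higher in the later cages (adjusted p = 0.0388 in edgeR), and so was Opalin, 1 of 10 oligodendrocyte markers (adjusted p = 0.0133 in edgeR). The neuron markers, led by Snap25, summed to 7607 to 8363 CPM in the earlier and 7636 to 8455 CPM in the later cages, and the oligodendrocyte markers, led by Mbp, to 5787 to 6493 and 6134 to 6933 CPM. Among 9 microglia, 5 ependymal, 5 choroid plexus, 5 Purkinje cell and 5 granule cell markers 0 were called for cage. Of the microglia markers 8 of 9 were higher in the later cages (median log2 difference 0.13). Dominant male 1, of the earlier cages, had the highest sum of all males, at 512 CPM. With all males the sums overlapped, at 435 to 512 CPM in the earlier and 475 to 498 CPM in the later cages. Without dominant male 1, a choice made after seeing the data, the earlier cages had 435 to 469 CPM. All 5 choroid plexus markers were higher in the later cages (median 0.25, or 0.23 without dominant male 1). The medians of the Purkinje and granule cell markers were 0.50 and 0.44, and without that library they changed sign to -0.028 and -0.20. Over the 13 lists beside the 10 genes, edgeR called 9 of 143 genes tested for cage in males (6.29%, against 5.89% of all genes) and had 44 at an unadjusted p under 0.05, which 22.3% of all genes had. The part of these cell types in the cage differences of Slc1a2 and Aldh1l1 was not tested.

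For rank, edgeR called 0 of the 143 genes of these lists in males (3 at an unadjusted p under 0.05) and 0 in females (22), and for cage in females it called 0 (22). Among all genes, an unadjusted p under 0.05 was found for 1.32% (male rank), 10.5% (female rank) and 5.11% (female cage). In dominant females the 5 ependymal markers, led by Foxj1, and the 5 choroid plexus markers, led by Ttr, all had log2 fold changes below 0, with medians of -0.37 and -0.30. The ependymal markers summed to 18.8 ± 1.86 CPM among dominant and 23.3 ± 3.04 CPM among submissive females (SD, n = 4 each), and the choroid plexus markers to 769 ± 70.1 and 886 ± 152 CPM (SD, n = 4 each). All 7 endothelial markers had log2 fold changes above 0 in dominant females, with a median of 0.046. In males the 5 Purkinje cell and the 5 granule cell markers were all below 0, with medians of -0.22 and -0.17, as were the 5 Bergmann glia genes (median -0.10), and these directions rested largely on dominant male 1. Without it, the summed CPM of dominant and submissive males was 476 ± 117 (SD, n = 6) and 469.6 ± 73.0 (SD, n = 7) for the granule cell markers. The sum was 447 ± 41.1 and 445 ± 38.2 for the Bergmann glia genes, mostly Gria4. For the Purkinje cell markers, mostly Itpr1, it was 2689 ± 219 and 2745 ± 237. The 5 choroid plexus markers were all above 0 in males (median 0.10), opposite to females, with Ttr at 0.30 and Folr1 at 0.37, the latter the highest. The part of these markers in the female values of Slc1a2 was not tested.

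Promoter sequence is shown for Slc1a3 and S100b, because their cage means in males had a negative rank correlation with Slc1a2 that passed its test over all 7 cages and no annotated exon lies in the 250 bases before their start. Aldoc, the remaining gene that passed, has an annotated exon in this window. RefSeq promoters of build GRCm38.p6 were matched for 9 of the 10 genes. The start matched for Slc1a2 lies 47755 bases from its start in the count tables, inside the span given above, and its window is counted among the 9. The sequences are chr15:8710808-8711057 on the minus strand for Slc1a3 and chr10:76253586-76253835 on the plus strand for S100b. Capitals mark TTGGC on either strand (GCCAA on the other), the core of sites bound by nuclear factor I, a transcription factor family of astrocytes.
Slc1a3: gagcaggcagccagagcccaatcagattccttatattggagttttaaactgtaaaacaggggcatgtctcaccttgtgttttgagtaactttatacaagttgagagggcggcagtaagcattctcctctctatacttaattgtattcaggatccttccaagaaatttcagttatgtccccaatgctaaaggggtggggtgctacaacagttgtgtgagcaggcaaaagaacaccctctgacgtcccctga
S100b: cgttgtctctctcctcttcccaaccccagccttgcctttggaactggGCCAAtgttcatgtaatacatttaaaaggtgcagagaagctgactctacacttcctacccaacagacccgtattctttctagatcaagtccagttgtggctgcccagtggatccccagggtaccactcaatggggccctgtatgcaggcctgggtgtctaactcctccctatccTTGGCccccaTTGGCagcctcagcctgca
The letters occur 3 times in the window of S100b and 0 times in that of Slc1a3. Of the 9 genes matched, 4 hold them at least once, and so do 41.5% of all 32851 promoter windows of this length.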

How the data were processed

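Per the labels, the authors prepared stranded libraries from total RNA after depletion of ribosomal RNA, and they deposited read counts per gene made with featureCounts 1.6.2 after trimming (cutadapt 1.15) and alignment to mm10 (STAR 2.6.0a). The strand setting of the counting is not given in the sources used here. Whether reads of genes that overlap on opposite strands were counted apart is therefore not known. The deposited exon length of each gene was used for lengths.

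The deposited counts were scaled by TMM and tested within each sex with the quasi-likelihood test of edgeR 4.0.16 (R 4.3.3), a filter by expression (10 counts per library, 15 in total), Benjamini-Hochberg adjustment over all genes tested and a threshold of 0.05. Rank was tested alone, and cage by an F test beside rank. Log2 CPM used a prior count of 2. Correlations over cages were tested by exact permutation. The tests were also tried on simulated data, and no result given here rests on the outcome. Alternatives were DESeq2 1.42.0, its size factors, no expression filter, a loess trend on exon length removed (span 0.3), the replicate block, no rank term, a prior count of 0.5, parts of the cages and leaving out mice or cages. The cage tests in parts of the cages, the correlations without cage 1 or with the means of the cage sets removed and the cage differences, list sums and list directions without dominant male 1 were chosen after seeing the data.

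Replicate numbers pair the samples. Library names give both mice of a number the same cage or, in female replicates 3 and 4, the same group. The mean correlation of their deviations from the group means was 0.177 in males and 0.024 in females, against -0.029 and -0.0080 for other pairs. The mean chi-square per gene was 1.84 to 15.7 in 42 male pairs and 1.77 to 3.49 in 12 female pairs within groups, all above sampling noise.

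The genes and lists were chosen with earlier results of these data known. Named genes were the 10 members, the 3 most abundant genes of each other list (some are left out of the text), list genes past the threshold (at most 5 per list and fit), genes at 0 counts and the 5 genes most correlated with Slc1a2 at a mean CPM of at least 10. Genes that failed the filter and Pcp2 were named after their values were seen. Ppap2b stood for Plpp3. Depths of 12403943 to 16488762 counts allow up to 3 counts where a gene had 0.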

Additional observations from a re-analysis of the deposited data

Results flagged for a closer look

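In 4 of the 40 combinations of gene and group, 1 mouse was far from the others of its group, where chance flags about 1 in 20 groups. Most of the 4 came from 1 library, so they are not independent and their number is not read against that rate. Dominant male 1 had 711.8 CPM of Slc1a3, while the other 6 dominant males had 829 to 923 CPM. It had 299.8 CPM of Aqp4 against 369 to 418 CPM, and 172.5 CPM of S100b against 229 to 264 CPM. The same library had 0 counts of Pcp2 and the lowest summed level of cerebellar granule cell markers. Submissive male 4 had 197.1 CPM of S100b, while the other submissive males had 242 to 258 CPM. Its Pcp2 level was 19.9 CPM. Whether tissue content had a part in these values was not tested.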

How the results depend on the processing

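In males 0 of the 10 genes were called for rank in every fit, and over 22 fits the adjusted p of Slc1a2 stayed between 0.999 and 1.00 in edgeR and DESeq2. Of the rank fold changes in males 26 changed sign and 176 did not. For Slc1a2 the log2 fold change was -0.021 with the replicate block that pairs cage mates, 0.020 with the exon length trend removed, with or without the block, 0.0044 within cages 5 to 7 and -0.062 to 0.020 with 1 mouse left out. With 1 mouse left out it ran from -0.0072 to 0.030 for Glul, -0.015 to 0.010 for Gja1, -0.043 to 0.011 for Gjb6, -0.047 to 0.026 for Gfap, -0.014 to 0.034 for Aldh1l1 and -0.067 to 0.012 for Aldoc. For Gja1 it was 0.0042 with the length trend removed and 0.0035 with the block added. In females the value of Slc1a2 was 0.11 with the replicate block, 0.094 to 0.12 with 1 mouse left out and 0.040 with the length trend removed, with or without the block. Among all genes the calls for female rank numbered 14 in edgeR, 78 in DESeq2, 36 with the block, 0 with the length trend removed, 8 with both, 84 without a filter and 0 to 77 with 1 mouse left out. The genes called for cage in males, 2 of the 10, became 1 with the length trend removed, 0 to 3 with 1 cage left out, 0 in cages 1 to 4 alone and 0 in cages 5 to 7 alone. Aldoc was called beside the 2 with no expression filter and with no rank term. The calls among all genes, 868, became 543 with the length trend removed and 375 to 1841 with 1 cage left out. They numbered 1196 with no expression filter and 1144 with no rank term. In females Gjb6 alone, 1 of the 10, was called for cage without an expression filter, where the calls among all genes rose from 11 to 99. With 1 female cage left out the calls among all genes numbered 2 to 31. Of the correlations 8 changed sign and 82 did not. Without cage 1, the r of Slc1a2 within cages was 0.56 with Glul, -0.046 with Gja1, 0.094 with Aldh1l1 and -0.014 with S100b. With the length trend removed it was 0.24 with Aldh1l1, and 0.64 with Glul over cage means. With the means of the cage sets removed it was 0.89 with Glul and 0.016 with Gfap over cage means. The cause of these changes was not tested.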
